A study of Mus musculus with 24 samples.

Results

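The genes of Foxm1, of B-Myb and of the MuvB complex were followed through a serum-driven cell cycle in mouse embryonic fibroblasts (MEF). The 8 genes were Foxm1, Mybl2 (which encodes B-Myb), Mybl1 (A-Myb) and the 5 subunits of the MuvB core, Lin9, Lin37, Lin52, Lin54 and Rbbp4. They were taken by gene symbol from the platform annotation, with the probe set of highest mean intensity for each gene, and all 8 were among the 9908 genes tested. MEF are connective tissue cells grown from mouse embryos, used here at early passage. All cells were grown with 10% foetal calf serum, and those of the time course were then starved for 48 h in low serum before 10% serum was restored. Low serum is 0.5% in the sample protocol and 0.1% in the design text. The 24 arrays comprised 2 of unsynchronized cells and 22 from 18 times between 0 h (starved, not yet refed) and 30 h, with 2 arrays each at 0, 12, 18 and 24 h and 1 array at each of the other 14 times. The labels call the duplicates biological replicates, but no source states that the cultures were separate, so the p-values cover only the spread between arrays, which may be technical.

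MuvB is a complex that changes partners during the cell cycle. In quiescent cells it binds the pocket proteins p107 or p130 together with E2F4 or E2F5 and DP proteins to form DREAM, which represses cell cycle genes. In S phase the MuvB core leaves the pocket protein and binds B-Myb, and in G2 it recruits the forkhead factor FOXM1, and these forms activate genes of G2 and mitosis, many of them through a promoter element called the cell cycle genes homology region (CHR). LIN54 is the subunit that binds the CHR, LIN52 contacts the pocket protein or B-Myb, LIN9 and LIN52 together hold B-Myb, LIN37 is needed for repression, and RBBP4 is a histone-binding protein shared with several chromatin complexes.

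Values are RMA intensities on the linear scale, and changes are differences of log2 intensity with their standard error (SE) from limma. A change was called at a Benjamini-Hochberg adjusted p under 0.05 over all 9908 genes. A group of 1 array was assumed to vary like the duplicated groups. In bulk RNA, fewer cells expressing a gene and less RNA per cell cannot be told apart. All 12 fibroblast markers were over the minimum intensity of 20, which a probe set had to reach on at least 2 arrays. Their summed intensity was 24459 and 26560 at 0 h, 21750 to 21826 at 24 h and 17662 to 17812 in unsynchronized cells. Against 0 h, 5 were called lower and 2 higher at 24 h, and 9 lower and 1 higher in unsynchronized cells. Of all genes 14.5% were higher at 24 h and 21.7% in unsynchronized cells. These were 54.7% and 50.7% of the genes called, and the rest of those called were lower. Of 7 endothelial markers 2 were over the minimum, Kdr (up to 66.2) and Tek (up to 39.9), while Pecam1 reached no more than 5.84. At 12 h Tek was lower by -2.35 and Kdr higher by 0.99 than at 0 h (limma adjusted p = 6.11e-06 and 0.00858). Of 7 epithelial markers Krt19 alone was over the minimum on at least 2 arrays (up to 24.9). It was called higher at 4 to 8 h (0.89) and in unsynchronized cells (0.73). Krt18 and Krt8 reached 25.8 and 24.6, but were at 20 or more on fewer than 2 arrays, while Epcam reached no more than 4.63. Of 11 macrophage and leukocyte markers 10 were over the minimum. Their summed intensity was 1609 and 2259 on the arrays at 0 h, 1157 to 1394 at 24 h and 973 to 1054 in unsynchronized cells. Over all arrays Ptprc, the lowest of these 10, lay between 6.54 and 20.4. Lyz2 lay between 517 and 1143, Fcer1g between 106 and 457 and Cd68 between 126 and 369. That list had 6 of 10 members lower and 1 higher at 24 h than at 0 h, and the part of these marker changes in the results below was not tested. Duplicates differed with an SD of 0.35 (log2) at 0 h, and the other duplicated groups had SDs of 0.22 to 0.27. The single arrays at 26 h and 4 h stood farthest from their neighbours in time, with a root mean square log2 difference of 0.60 and 0.46 against 0.23 to 0.41 for the others.

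Upstream sequence was in hand for 5 of the 8 genes (RefSeq, GRCm38.p6), and 3 of these windows are printed because they set a gene that rose strongly (Mybl2) beside one that rose moderately (Lin54) and one that was lower at 4 to 8 h and was not called higher at any time (Lin52). Each runs 5′ to 3′ over the 250 bases before the annotated start, and capitals mark matches, on either strand, to the CHR (TTTGAA or TTCGAA), the CCAAT box (CCAAT) or the E2F letters (TTTCCCGC, TTTGGCGC or GGCGGGA). The letters GGCGGGA were chosen with the Mybl2 window in view.
Mybl2 (chr2:163054385-163054634, + strand): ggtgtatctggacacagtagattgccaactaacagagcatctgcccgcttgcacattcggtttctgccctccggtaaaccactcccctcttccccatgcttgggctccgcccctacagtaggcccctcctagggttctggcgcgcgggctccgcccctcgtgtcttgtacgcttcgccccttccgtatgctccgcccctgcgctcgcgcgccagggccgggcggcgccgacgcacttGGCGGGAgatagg
Lin54 (chr5:100498574-100498823, - strand): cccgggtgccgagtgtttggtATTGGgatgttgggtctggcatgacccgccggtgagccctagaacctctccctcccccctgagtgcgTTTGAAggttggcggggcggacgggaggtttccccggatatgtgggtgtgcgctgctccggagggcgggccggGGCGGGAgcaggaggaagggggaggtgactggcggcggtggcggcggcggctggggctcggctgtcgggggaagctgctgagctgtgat
Lin52 (chr12:84451258-84451507, + strand): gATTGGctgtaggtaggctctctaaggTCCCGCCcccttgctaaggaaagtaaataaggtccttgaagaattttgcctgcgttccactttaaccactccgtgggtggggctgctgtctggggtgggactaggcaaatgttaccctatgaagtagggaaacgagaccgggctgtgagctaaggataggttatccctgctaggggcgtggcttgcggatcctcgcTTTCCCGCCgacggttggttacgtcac
The Mybl2 window held GGCGGGA at positions -13 to -7, counted from the start, and no CHR or CCAAT. The Lin54 window held a CHR match at -162 to -157, a CCAAT box and GGCGGGA at -89 to -83, and the window of a second annotated Lin54 start held no match. Lin52 had a CCAAT box, a GGCGGGA match at -223 to -217 and matches to TTTCCCGC (-27 to -20) and GGCGGGA (-25 to -19) that overlap. Lin37, which was called in no comparison, held a CHR match, 2 CCAAT boxes and GGCGGGA, and Rbbp4 held a single CCAAT box at -26 to -22. The forkhead letters TAAACA were in none of the 5 genes' windows. Of 32851 windows of the same length, 10.5% held an E2F match, 17.1% a CHR, 33.8% a CCAAT box and 12% TAAACA. E2F letters were thus found both in genes that rose (Mybl2, Lin54) and in genes that were not called higher (Lin37, Lin52).

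**Figure D1:**
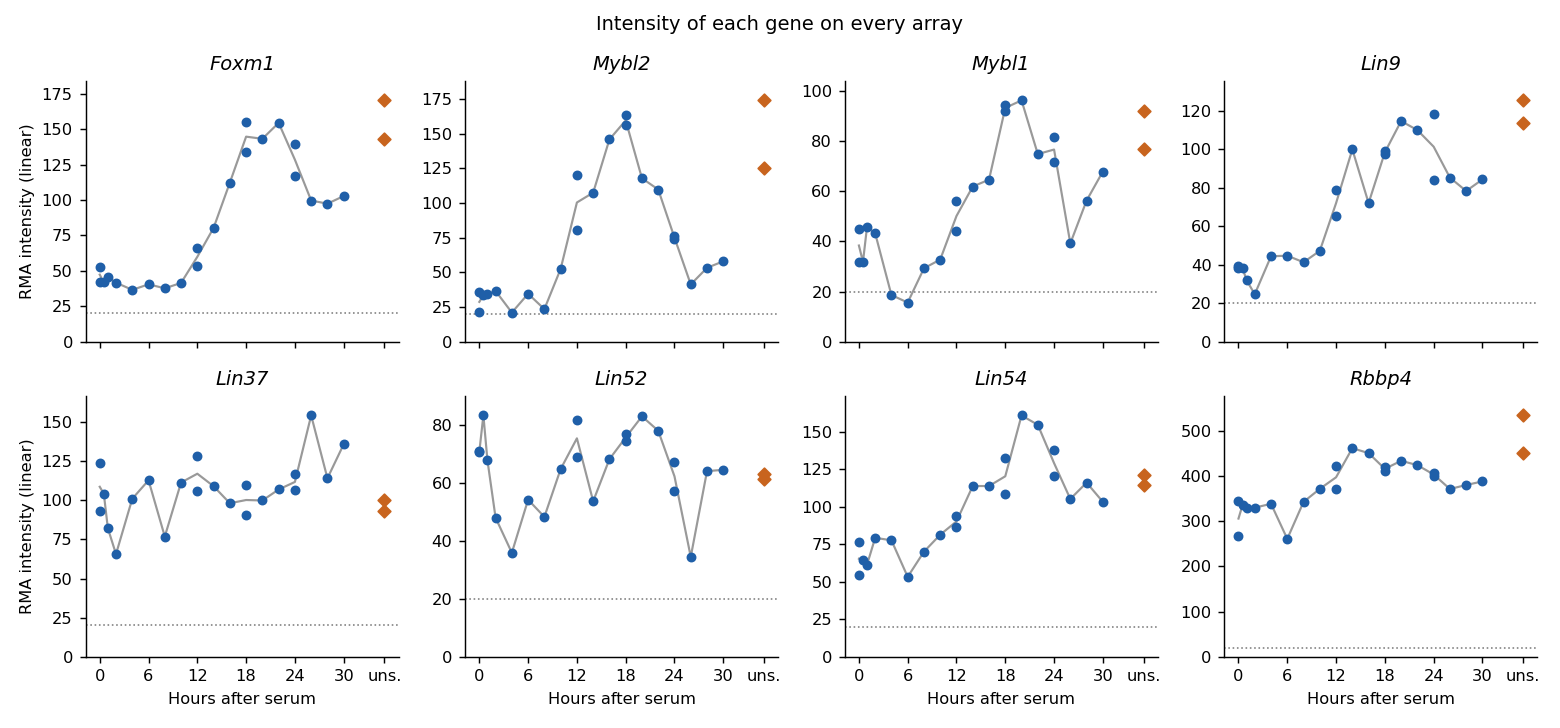
RMA intensity (linear, y axis) of each of the 8 genes on every array against hours after serum (x axis), with blue points for single arrays of the time course, a grey line through the mean at each time, orange diamonds for the 2 unsynchronized arrays (uns.) and a dotted line at the minimum of 20. Mybl2 was highest at 18 h and Foxm1 at 22 h, whereas Lin37 and Lin52 showed no such rise.

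Mybl2, the activator that joins MuvB in S phase, changed most. Its intensity was 21.5 and 36.0 at 0 h, lay between 21.0 and 36.6 on every array up to 8 h, and was 52.5 at 10 h. It then reached 80.8 and 120 at 12 h, 107 at 14 h, 146 at 16 h and 163 and 156 at 18 h. After this it declined to 118 at 20 h, 110 at 22 h, 74.0 and 76.0 at 24 h and 41.3, 53.3 and 58.0 at 26, 28 and 30 h. Every array from 10 h on was above both arrays at 0 h, and both arrays at 24 h were below both at 18 h. Unsynchronized cells had 125 and 174. The change against 0 h was 1.82 (SE 0.26, n = 2 and 2, limma adjusted p = 0.000525) at 12 h, 2.52 (SE 0.26, adjusted p = 6.62e-05) at 18 h, a 5.74-fold difference, and 1.43 (SE 0.26, adjusted p = 0.0023) at 24 h. From 18 h to 24 h the measured change was -1.09 (95% interval -1.66 to -0.52), which did not pass the test over all genes (limma adjusted p = 0.235).

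Foxm1, the forkhead activator of G2 and mitotic genes, followed later. It had 52.7 and 41.9 at 0 h and stayed between 36.6 and 45.5 on all 7 arrays from 0.5 h to 10 h. Its intensity was 53.4 and 66.4 at 12 h, 80.3 at 14 h, 112 at 16 h, 155 and 134 at 18 h, 143 at 20 h and 154 at 22 h. It was still 140 and 117 at 24 h and 97.4 to 103 from 26 h to 30 h, and unsynchronized cells had 143 and 170. Every array from 12 h on was above both at 0 h, and the unsynchronized arrays overlapped those of 18 to 22 h. The change against 0 h was 0.34 (SE 0.18, n = 2 and 2, limma adjusted p = 0.168) at 12 h, 1.62 (SE 0.18, adjusted p = 0.000103) at 18 h and 1.44 (SE 0.18, adjusted p = 0.000239) at 24 h. Between 12 h and 18 h Foxm1 rose by 1.28 (SE 0.18, limma adjusted p = 0.00447), and this call was lost without replicate 1 at 12 h or replicate 1 at 18 h, with a highest adjusted p of 0.0771 over the alternatives.

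Mybl1, the B-Myb relative that is best known from male germ cells, dipped before it rose. Its intensity was 45.0 and 31.7 at 0 h, 31.8 to 45.8 from 0.5 h to 2 h, then 18.6 at 4 h, 15.6 at 6 h and 29.2 at 8 h. The arrays at 4 h and 6 h were the only 2 of 24 on which it was under the minimum of 20. It reached 94.4 and 91.9 at 18 h and 96.2 at 20 h, was 81.6 and 71.5 at 24 h, fell to 39.2 on the 26 h array and was 67.8 at 30 h, beside 91.8 and 77.0 in unsynchronized cells. The change was -0.89 (SE 0.17, n = 3 and 2, limma adjusted p = 0.00232) for 4 to 8 h against 0 h and -0.82 without the 4 h array, and 1.30 (SE 0.19, adjusted p = 0.000583) at 18 h. The rise of 0.91 from 12 h to 18 h (limma adjusted p = 0.0388) was called in 9 of 19 alternative settings, in which adjusted p ran from 0.00554 to 0.324.

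Within the MuvB core the subunits parted. Lin9, a B-Myb-binding subunit, had 38.2 and 39.2 at 0 h, 24.7 at 2 h, 65.3 and 78.7 at 12 h, 99.3 and 97.5 at 18 h, 115 at 20 h, 118 and 84.3 at 24 h and 114 and 125 in unsynchronized cells. It was above both starved arrays on every array from 4 h on. The change was 0.89 (SE 0.17, n = 2 and 2, limma adjusted p = 0.00323) at 12 h, 1.35 (SE 0.17, adjusted p = 0.000251) at 18 h and 1.37 (SE 0.17, adjusted p = 0.000274) at 24 h. Lin54, the DNA-binding subunit, had 76.5 and 54.3 at 0 h, 86.4 and 94.2 at 12 h, 132 and 108 at 18 h, 161 at 20 h, 155 at 22 h, 138 and 120 at 24 h and 114 and 121 in unsynchronized cells. Its rise was smaller than that of Lin9 and its highest array came at 20 h. The change was 0.48 (SE 0.18, limma adjusted p = 0.063) at 12 h, 0.89 (SE 0.18, adjusted p = 0.00368) at 18 h and 1.00 (SE 0.18, adjusted p = 0.00228) at 24 h.

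Rbbp4, the histone-binding subunit, had 267 and 345 at 0 h, 372 and 422 at 12 h, 462 at 14 h, 412 and 420 at 18 h, 401 and 406 at 24 h and 534 and 450 in unsynchronized cells. Its groups at 12, 18 and 24 h lay above both starved arrays, but its whole range over the course was 1.77-fold. The change was 0.46 (SE 0.16, n = 2 and 2, limma adjusted p = 0.0494) at 18 h, which was called in 4 of 19 alternative settings with adjusted p from 0.011 to 0.233, and 0.41 (SE 0.16, adjusted p = 0.0782) at 24 h. In unsynchronized cells it was 0.69 (SE 0.16, adjusted p = 0.00511), and this call was lost without unsynchronized replicate 1. A second Rbbp4 probe set, which never reached 20, gave changes of the opposite sign. Another was annotated to both Sync and Rbbp4 and was not used.

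Lin37 and Lin52 did not follow this course. Lin37, the subunit needed for repression, had 93.2 and 124 at 0 h, 128 and 106 at 12 h, 110 and 90.4 at 18 h, 107 and 117 at 24 h and 99.8 and 92.8 in unsynchronized cells. Each of these groups overlapped that at 0 h, and the highest value was 154 on the 26 h array. The change at 18 h was -0.11 with a 95% interval of -0.49 to 0.28 (limma adjusted p = 0.671), and the change at 24 h was 0.05 (-0.33 to 0.44, adjusted p = 0.852). Lin52, the subunit whose phosphorylation directs MuvB to the pocket protein, had 70.8 and 70.9 at 0 h, 83.3 at 0.5 h, 48.0 at 2 h, 35.9 at 4 h, 54.2 at 6 h and 48.3 at 8 h. It returned to 69.0 and 81.8 at 12 h and had 74.4 and 77.0 at 18 h, 57.3 and 67.3 at 24 h, 34.5 on the 26 h array and 61.6 and 63.0 in unsynchronized cells. Both of its lowest values fell on the 2 arrays that stood apart. It was lower by -0.64 (SE 0.13, n = 3 and 2, limma adjusted p = 0.00246) at 4 to 8 h than at 0 h, and by -0.47 (adjusted p = 0.0234) without the 4 h array. Its change at 18 h was 0.10 (95% interval -0.21 to 0.40, adjusted p = 0.637).

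**Figure D2:**
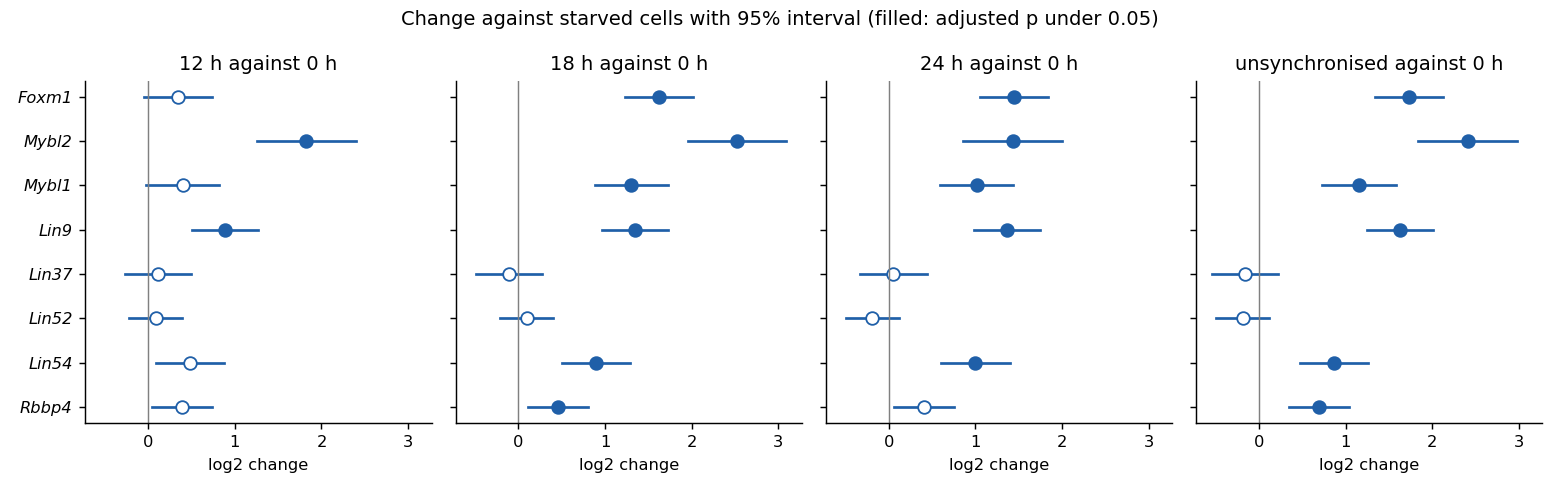
Change of each gene against starved cells at 12, 18 and 24 h and in unsynchronized cells (x axis, log2 difference of group means), with bars for the 95% interval from limma and filled points for adjusted p under 0.05; each group has 2 arrays. Mybl2 and Lin9 were called at 12 h, and Lin37 and Lin52 were called in none of these panels.

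Counted over the 8 genes, more were called at 18 h than at 12 h, and each count is set here beside the share of all genes. For 4 to 8 h against 0 h, 2 genes were lower (Mybl1 and Lin52) and 22.4% of all genes were lower. At 12 h 2 genes were higher (Mybl2 and Lin9), beside 18.9% of all genes. At 18 h 6 genes were higher (all but Lin37 and Lin52), beside 15.7%, and the median change of the 8 was 1.10 against 0.00 over all genes. Of these 6, Rbbp4 was called in 4 of 19 alternative settings. At 24 h 5 were higher, beside 14.5%, with medians of 1.01 and 0.02. In unsynchronized cells 6 were higher than at 0 h, the same 6 as at 18 h, beside 21.7%. These comparisons share the arrays at 0 h and are not independent of one another.

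Between later groups fewer genes passed. From 12 h to 18 h Foxm1 and Mybl1 rose, 2 of 8, where 1.29% of all genes were higher. From 18 h to 24 h 0 of 8 were called by limma, with 1 (Mybl2) at an unadjusted p under 0.05, and 0.0202% of all genes (2 genes) changed. For 26 to 30 h against 24 h 0 of 8 were called, with 2 (Mybl2 and Mybl1) at an unadjusted p under 0.05, and 0.0505% of all genes changed. Their changes were -0.57 and -0.53, and -0.43 and -0.31 without the 26 h array. At 24 h against unsynchronized cells 0 of 8 were called, with 1 (Mybl2, -0.98, limma adjusted p = 0.0611) at an unadjusted p under 0.05, and 4.57% of all genes changed. The F test over all times after 0 h called 6 of 8, beside 43.7% of all genes, and left out Lin37 (adjusted p = 0.0975) and Rbbp4 (adjusted p = 0.154). Lin52 was among the 6, with its largest changes from 0 h on the single arrays at 26 h (-1.04) and 4 h (-0.98). The F test was not run without these 2 arrays, which stood apart.

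The order of the activators was read from the time at which each log2 profile passed midway between its minimum up to 10 h and its maximum from 10 h to 24 h. Mybl2 passed midway at 10.3 h, Lin9 at 10.6 h, Mybl1 at 10.8 h, Lin54 at 12.2 h and Foxm1 at 13.6 h. Over 16 settings these times ran from 10.2 to 11.6 h for Mybl2, 10.5 to 11.8 h for Lin9, 10.6 to 13.0 h for Mybl1, 11.8 to 13.4 h for Lin54 and 13.3 to 15.0 h for Foxm1. The order of these 5 genes was the same within each of the 16 settings. However, no setting left out the 2 h array, which alone set the minimum of Lin9 (24.7, beside 31.9 at 1 h). Without that array the Lin9 minimum from 0 h would be -0.28 at 1 h, with the maximum still 1.57 at 20 h. Its midway level would then be crossed later between 10 h (0.29) and 12 h (0.89), after that of Mybl1. The place of Lin9 ahead of Mybl1 thus rests on the 2 h array. The settings share most of their arrays and give no error for the gaps, which were under the 2 h between arrays for each neighbouring pair. Most times rest on single arrays taken every 2 h. The minimum of Mybl1 was its 6 h array (15.6, under 20), at -1.27 from 0 h, and its maximum was 1.35. Its midway level therefore lay near its 0 h level. Measured from 0 h, Mybl1 and Foxm1 had 0.40 and 0.34 at 12 h, 0.71 and 0.77 at 14 h and 0.77 and 1.26 at 16 h. On that measure Mybl1 did not clearly lead Foxm1.

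The ratio of Mybl2 to Foxm1 was also followed array by array. It is made of the same log2 values as the midway times, so it is a description and no separate evidence for their order. Set to a mean of 0 at 0 h, the log2 ratio was -0.54 and 0.54 on the starved arrays and between -0.04 and 0.57 from 0.5 h to 8 h. It was 1.10 at 10 h and 1.35 and 1.61 at 12 h. It was 0.83 and 0.98 at 18 h, 0.27 at 22 h, -0.16 and 0.13 at 24 h and -0.51 at 26 h. Mybl2 therefore stood higher relative to Foxm1 at 10 h and 12 h than on the arrays up to 8 h, without a steady gain before, and lost that gain by 24 h. The difference was 1.48 for 12 h against 0 h and -0.92 for 24 h against 18 h, without overlap between the duplicates in either case. The exact two-sided permutation test gave p = 0.333 for both, the smallest that 2 arrays against 2 allow. Against Lin9 the ratio of Mybl2 rose by 1.17 from 0 h to 18 h and changed by -1.11 from 18 h to 24 h (exact permutation p = 0.333 for both), and over the latter interval Lin9 itself changed by 0.02. The ratio of Foxm1 to Mybl1 differed from 0 h by -0.06 at 12 h and 0.32 at 18 h (exact permutation p = 1 and 0.333), but it was 0.66 at 4 h, 1.06 at 6 h, 0.73 at 22 h and 1.03 at 26 h, each on 1 array. In all 12 such comparisons were computed, and none can reach 0.05.

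**Figure D3:**
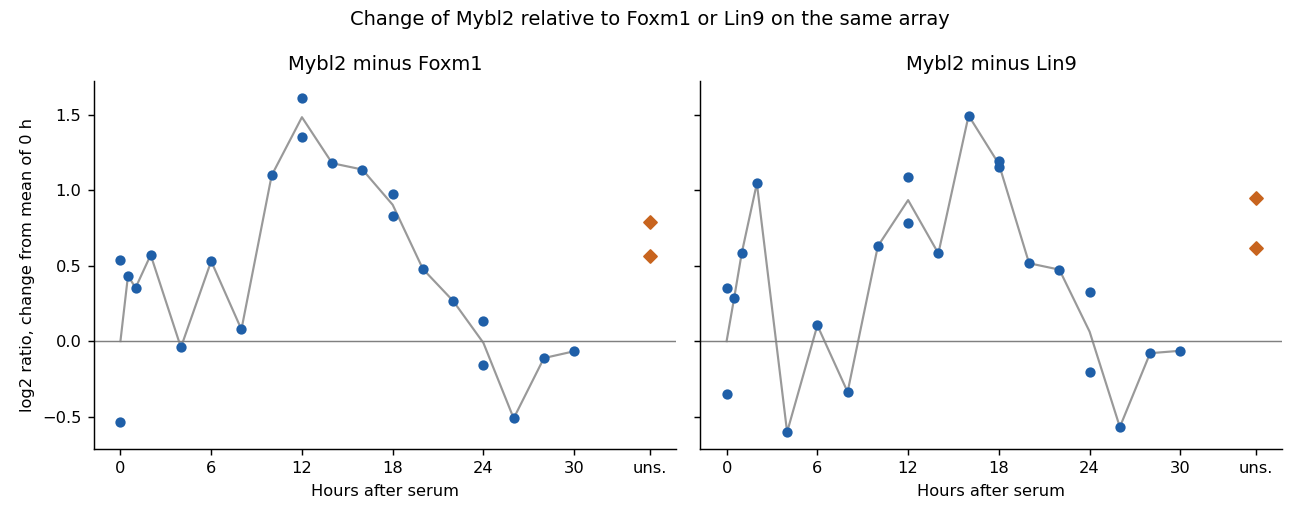
Log2 ratio of Mybl2 to Foxm1 (left) and of Mybl2 to Lin9 (right) on the same array, minus its mean at 0 h (y axis), against hours after serum (x axis), with blue points for single arrays, a grey line for the mean at each time and orange diamonds for unsynchronized cells (uns.). The ratio to Foxm1 was 1.35 and 1.61 at 12 h and -0.16 and 0.13 at 24 h.

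The target genes of these factors were given as a list for G2 and mitosis and a list for the G1/S boundary. Of 31 G2-M target genes tested, 20 were lower at 4 to 8 h than at 0 h, beside 22.4% of all genes. At 12 h 5 were higher and 1 lower, at 18 h 30 were higher and at 24 h all 31. The shares of all genes that were higher at these 3 times were 18.9%, 15.7% and 14.5%. The median change of the G2-M list at 24 h was 1.73, against 0.02 over all genes. Between 12 h and 18 h 28 of the 31 rose, beside 1.29% of all genes. The largest changes at 24 h were those of Cep55 (2.71), which acts in the final cut between daughter cells, Birc5 (2.45), which encodes survivin, Nek2 (2.43), a centrosomal kinase, and Kif14 (2.35), a kinesin of cytokinesis. The member lower at 12 h was Ccnb2, a B-type cyclin, at -1.05 (SE 0.23, limma adjusted p = 0.00642).

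Of 21 G1-S target genes tested, 20 were higher at 12 h and all 21 at 18 h and 24 h than at 0 h. The shares of all genes that were higher were 18.9%, 15.7% and 14.5% at 12, 18 and 24 h. The median change of the G1-S list was 1.26 at 12 h and 1.14 at 24 h. Rrm2 (2.18 at 24 h), a subunit of ribonucleotide reductase, Cdc6 (1.87) and Mcm3 (1.77), which license replication origins, and Uhrf1 (1.60), which maintains DNA methylation, changed most. The median midway time of this list was 9.55 h (quartiles 8.07 to 10.4 h) and that of the G2-M list 13.4 h (11.9 to 14.3 h). Of the G1-S genes 15 of 21 passed midway before Mybl2, whereas 0 of 31 G2-M genes did. Over the 16 settings the first count ran from 13 to 17 and the second was 0 in each. Of the G2-M genes 19 of 31 passed midway before Foxm1, but this count was 6 with linear intensities, which moved the list median to 15.9 h. It was 13 without the 4 h array and reached 22 with only the second duplicates. Midway was counted from each gene's own minimum, and the median of the G2-M list was -1.17 at 4 h against 0 h. Measured from 0 h, that median was 0.05 at 12 h and 0.55 at 14 h, beside 0.34 and 0.77 for Foxm1. The count therefore does not show that most of these genes rose above 0 h before Foxm1. Of the G1-S genes 21 of 21 passed midway before Foxm1 in every setting.

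**Figure D4:**
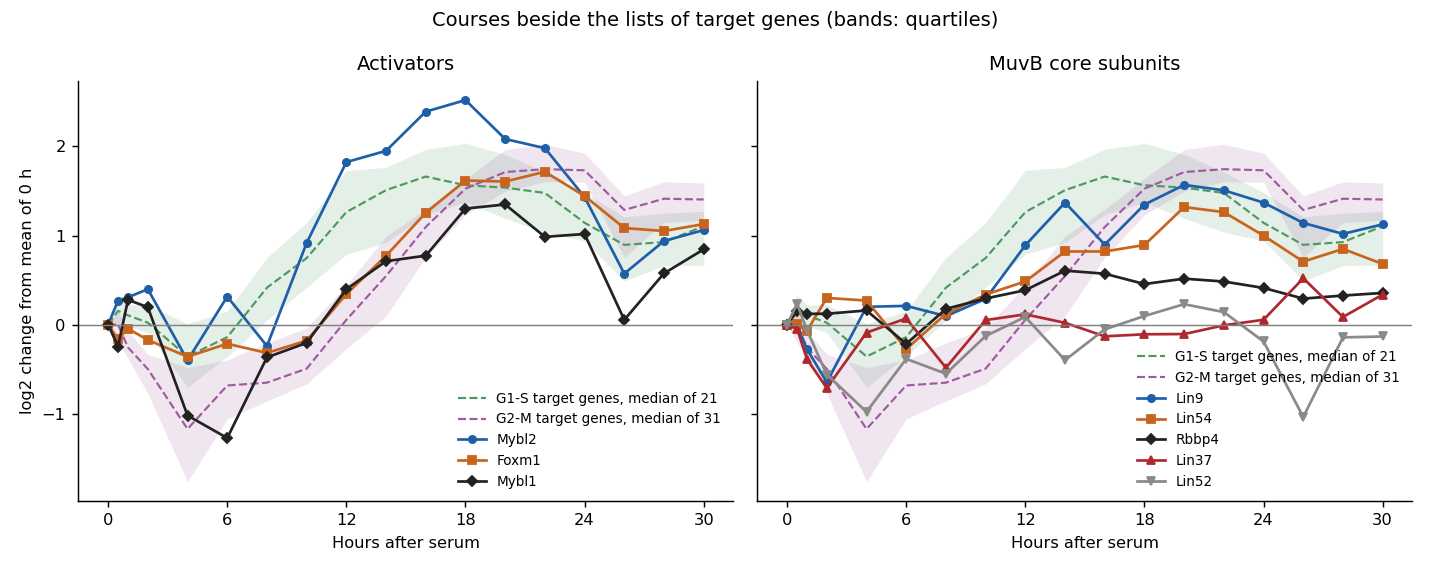
Log2 change from the mean at 0 h (y axis) against hours after serum (x axis) for the 3 activators (left) and the 5 MuvB core subunits (right), as solid lines through the mean at each time. Dashed lines are the medians of 21 G1-S and 31 G2-M target genes and bands their quartiles; Mybl2 reached 2.52 and Foxm1 1.62 at 18 h.

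The genes whose log2 profile over the 24 arrays was most like each member were named by Pearson r. These arrays are points of one course together with the unsynchronized arrays, so r is given as a description. For Foxm1 they were Prc1, Cdca2, Spdl1, Tpx2 and Fancd2, with Pearson r from 0.983 down to 0.974, and 142 genes had r over 0.9. For Mybl2 they were Pask, Uhrf1, E2f7, Mcm7 and Mcm10 (r 0.967 to 0.955), with 46 genes over 0.9. Prc1 and Tpx2 are spindle proteins and Fancd2 acts in DNA repair, and Mcm7 and Mcm10 act in DNA replication. Mybl1 was most like Prim2, Rrm1, Pole, Epb41l3 and Prim1 (0.958 to 0.941), Lin9 most like Cdca5, Cse1l, Cep55, Ndc1 and Cdk1 (0.954 to 0.944) and Lin54 most like Cks2, Kpna2, Birc5, Smc2 and Mad2l1 (0.925 to 0.917). Rbbp4 was most like Nasp (0.929), a histone chaperone, and Mcm4 (0.901), its only genes over 0.9. Lin37 and Lin52 had no gene over 0.9, with Taf8 (0.829) and Ikzf2 (0.850) the nearest.

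Of the 6 DREAM partners, Rbl1, which encodes p107, rose by 1.18 at 12 h, 1.70 at 18 h and 1.35 at 24 h (limma adjusted p = 0.000455 at 24 h). At 24 h 3 of the 6 were higher, beside 14.5% of all genes. At 4 to 8 h 2 were higher and 2 lower, where 22.4% of all genes were lower and 44.6% of the genes called were higher. E2f4, the repressor E2F of DREAM, was highest at 6 h. Its change from 0 h was 0.82 at 12 h, 0.65 at 18 h and 0.61 at 24 h (limma adjusted p = 0.0256 at 24 h). Tfdp1, its DP partner, was higher by 0.60 at 24 h (limma adjusted p = 0.0347). Rbl2, which encodes p130, had a change of -0.20 (SE 0.16, limma adjusted p = 0.386) at 24 h, and E2f5 and Tfdp2 were not called at 24 h either. The F test over all times after 0 h called 4 of the 6, beside 43.7% of all genes. E2f5 was among them and was highest at 8 h. Of 10 regulators and co-factors tested, 4 were higher and 1 lower at 24 h, where 14.5% of all genes were higher. Ccna2 (1.54), the S and G2 cyclin, and Cdk2 (0.90), its kinase partner, were higher, as were Chek2 (0.74), a checkpoint kinase that phosphorylates FOXM1, and Fzr1 (0.70), the activator of the ubiquitin ligase APC/C that targets FOXM1. Dyrk1b, a kinase of quiescent cells, fell by 1.02 (SE 0.24, limma adjusted p = 0.00939). Its relative Dyrk1a, the kinase that phosphorylates LIN52, had a change of -0.36 (adjusted p = 0.169).

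Rbbp4 also belongs to other complexes, of which 15 members were tested and 4 were higher at 24 h, beside 14.5% of all genes, with a list median of 0.27 against 0.02 over all genes. These were Chaf1a (1.74) and Chaf1b (0.79), the other subunits of chromatin assembly factor 1, and Ezh2 (0.67) and Eed (0.55) of the polycomb complex PRC2. Chd3, a remodeller of the NuRD complex, was lower at 12 h (-0.89, limma adjusted p = 0.00156) and at 18 h (-0.46, adjusted p = 0.0411). Rbbp7, the close relative of Rbbp4, had a change of 0.30 at 24 h (SE 0.13, adjusted p = 0.109) and was called in unsynchronized cells at 0.44. Myb, the remaining gene of the Myb family, did not reach the minimum on 2 arrays.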

How the data were processed

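Total RNA of 24 samples was hybridized to Affymetrix Mouse Gene 2.0 ST arrays, and per the labels the authors normalized the arrays with RMA in oligo (no version is given in the sources used here). Deposited intensities ran from 1.74 to 6335 and were read as linear, whereas their header says log2, so log2 of the deposited intensity was taken. Probe sets with exactly 1 gene in the platform annotation and an intensity of at least 20 on 2 or more arrays were kept, and the brightest stood for each gene (9908 genes). limma 3.58.1 (R 4.3.3) was fitted to all 24 arrays with 1 mean for each of 19 groups (residual degrees of freedom 5, prior 5.58). Tests were two-sided with Benjamini-Hochberg adjustment at 0.05, and the fit was tested on simulated data. Within-array ratios were compared by exact permutation. The number of arrays limits the precision. The named genes were the 8 members, the paralogues Myb and Rbbp7, and the 5 genes most correlated with each member. Also named were up to 4 of each list with the largest called change at 24 h, and list members called the opposite way. Rbl2, E2f5, Tfdp2, Dyrk1a, Pecam1, Epcam, Kdr, Tek, Krt19, Krt18, Krt8, Ptprc, Lyz2, Fcer1g and Cd68 were added after their values were seen. Alternatives were other minimums, scalings, variance models, arrays, thresholds and probe sets, and leaving out each duplicate. The members, lists and tests were chosen with earlier results of these data known. Motifs were searched with Python 3.11.15, and figures drawn with matplotlib 3.10.9.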

Additional observations from a re-analysis of the deposited data

How the results depend on the processing

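No called change of a member reversed under another minimum, scaling, variance model, set of arrays or threshold. The second Rbbp4 probe set, never at 20, reversed Rbbp4 to -0.91 at 4 to 8 h, -1.03 at 12 h, -1.02 at 18 h, -0.74 at 24 h and -1.04 in unsynchronized cells against 0 h, and the cause was not tested. With values below 20 set to 20, 1 gene was called from 12 h to 18 h, and with a 2-fold change also required the counts were 1 from 12 h to 18 h, 1 at 12 h and 0 at 4 to 8 h, and 4 (Foxm1, Mybl2, Mybl1 and Lin9) at 18 h, at 24 h and in unsynchronized cells in place of 6, 5 and 6. With only the groups compared, 1 was called at 4 to 8 h. Against unsynchronized cells, 1 gene (Mybl2) was called at 24 h with a variance trend, with only the groups compared or with the replicate number as a block, and the block changed 1 further call, that of Rbbp4 at 18 h (0.46). The numbers did not pair the samples, since deviations of same-numbered arrays correlated between -0.22 and 0.17 over 10 pairs of groups.

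Leaving out each duplicate in turn gave 2 to 4 genes called at 12 h, 5 to 6 at 18 h, 5 to 6 at 24 h, 2 to 2 at 4 to 8 h and 5 to 6 in unsynchronized cells against 0 h, 0 to 2 from 12 h to 18 h, 0 to 0 from 18 h to 24 h and for 26 to 30 h, 0 to 1 at 24 h against unsynchronized cells, and 6 to 8 at any time. The count of 4 at 12 h came without 0 h replicate 1, which added Mybl1 and Lin54, and the count of 0 from 12 h to 18 h came without replicate 1 of either group. The count of 6 at 18 h and at 24 h came only without 0 h replicate 2. Mybl2 was called at 24 h against unsynchronized cells without either 0 h replicate. Centring arrays on their median moved the share of higher genes among those called at 12 h from 61.7% to 49.1%. Leaving out the 26 h or the 4 h array, alternatives added after the data were seen for the late and early comparisons, left their counts at 0 and 2. Linear intensities gave the latest midway times, 11.6 h for Mybl2 and 15.0 h for Foxm1. With 1 array at most times, the course between the duplicated times has no replicate.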
